A study of Mus musculus with 8 samples.

Results

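The miR-146 and miR-155 guide arms are the best known microRNAs (miRNAs) of inflammatory signalling. They were followed here as mmu-miR-146a-5p, mmu-miR-146b-5p and mmu-miR-155-5p (written without the mouse prefix from here on) through osteogenic culture of a mouse osteoblast line and in newborn mouse skull bone. They were picked by name, as 3 of the 1418 entries (1281 mature miRNAs) in the deposited small RNA tables, and each had 1 entry. The choice was made with earlier results of these data known, in which a linear day trend had been computed for miR-146a-5p and miR-155-5p. Their course over days is therefore given as a description, with no test.

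Small RNA was sequenced from MC3T3-E1 sc4 cells, a clonal pre-osteoblast line from mouse calvaria labelled C57BL/6 and passage 10 to 15. The other material was skull vault bone, called calvaria. The day 0 library came from undifferentiated cells. The libraries of days 6, 10, 17 and 24 came from cells given ascorbic acid (50 µg/ml) and β-glycerol phosphate (4 mM), and each of the 5 libraries pooled equal RNA from 3 cultures. The 3 calvaria libraries came from parietal and frontal bones of C57/B6 Prrx1-Cre+ female mice, 2 to 3 days old, after a brief collagenase and trypsin digestion. Prrx1-Cre drives Cre recombinase in limb and skull mesenchyme. No floxed allele is named in the labels, and all 3 calvaria libraries carry the same genotype. Whether each calvaria library is a different animal is not stated, and p-values then speak only of the spread among these samples.

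The miR-146a hairpin is switched on by NF-κB, the transcription factor of toll-like receptor and interleukin-1 signalling. Its guide arm represses the signalling proteins Traf6 and Irak1 and so closes a negative feedback loop. The guide arm of miR-146b has the same seed. miR-155 is processed from the non-coding transcript Mir155hg, is induced in activated macrophages and lymphocytes, and represses brakes on cytokine signalling such as Socs1. Both families have been studied in osteoblasts and osteoclasts. Only miRNAs are reported here, and the levels of these targets were not analysed.

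The sequences show why the pair of miR-146 arms is treated as a family and why its counts need care. The mature arms below are from RefSeq (GRCm38.p6), read 5′ to 3′, with the seed (bases 2 to 8, which pair with targets) in capitals.
miR-146a-5p: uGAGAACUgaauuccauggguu
miR-146b-5p: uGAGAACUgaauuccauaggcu
miR-155-5p: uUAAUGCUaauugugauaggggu
miR-146a-5p and miR-146b-5p share the seed GAGAACU and are identical at 20 of 22 bases. They differ by G18A and U21C, counted from 1 at the 5′ end with the miR-146a-5p base given before the position. A read that ends before base 18 fits both. miR-155-5p has the seed UAAUGCU. No other mature miRNA in the RefSeq table of 1679 mature sequences had either seed. Of the 1281 mature miRNA names in the deposited tables, 1029 were in that table.

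The 3 hairpins below are shown because both arms were counted, and the capitals mark the 5p arm and then the 3p arm.
Mir146: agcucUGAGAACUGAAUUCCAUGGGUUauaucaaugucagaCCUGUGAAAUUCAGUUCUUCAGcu
Mir146b: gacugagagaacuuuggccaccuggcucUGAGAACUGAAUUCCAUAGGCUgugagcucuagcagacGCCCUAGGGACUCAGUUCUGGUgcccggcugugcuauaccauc
Mir155: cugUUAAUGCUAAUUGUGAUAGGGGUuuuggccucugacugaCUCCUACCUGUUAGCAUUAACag
Compared base by base from the 5′ end with no shift, the 3p arms of the miR-146 hairpins match at 4 of 22 positions. That count misses bases shared at shifted positions. Both 3p arms hold the stretch UCAGUUCU, which starts at a different position in each, and no alignment was made. The hairpins lie apart in the genome (GRCm38, the build named mm10 in the submitters' processing notes). Mir146 is at chr11:43374397-43374461 on the minus strand, outside any other GENCODE vM21 gene, and the nearest is the lincRNA Gm12148, 11021 bases away. Mir146b is at chr19:46342762-46342870 on the plus strand, in an intron of the protein-coding gene Mfsd13a. Mir155 is at chr16:84714140-84714204 on the plus strand, within an exon of the lincRNA Mir155hg.

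Library totals ranged from 2742368 to 4031962 counts in MC3T3 and from 1183011 to 2023036 in calvaria. The day 0 library stood apart: 45.55% of its counts were miR-21a-5p, which held 11.23% to 20.14% of the later culture libraries. That lowers every other day 0 value in RPM (the count scaled to a fixed library total), so ratios to day 0 are also given after TMM scaling, which corrects for such shifts. The members' fits are given with and without day 0. Mesenchymal miRNAs (miR-143-3p, miR-145a-5p, miR-199a-3p, miR-199a-5p and miR-214-3p) summed to 130003 to 187906 RPM in MC3T3 and 131924 to 145904 RPM in calvaria. These miRNAs did not move as a group. miR-143-3p and miR-145a-5p were lower in calvaria (log2 -1.10 and -1.28, edgeR adjusted p up to 0.000525). miR-199a-3p was higher (log2 0.51, edgeR adjusted p = 0.0325), and miR-199a-5p and miR-214-3p did not pass. The leukocyte markers miR-142-3p, miR-142-5p, miR-150-5p and miR-223-3p summed to 0.95 to 4.37 RPM in MC3T3 libraries.

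miR-146b-5p was the abundant member. It stood at 1276 RPM at day 0. The libraries of days 6, 10, 17 and 24 held 10982, 12044, 10508 and 11866 RPM. The day 0 library was low and the 4 later libraries formed a plateau of 11350 ± 729 RPM (SD over days 6 to 24, n = 4). At day 10 it took 1.2% of all counts and ranked 20 among 611 detected mature miRNAs, against rank 42 of 609 at day 0. In calvaria it stood at 2929, 2438 and 3112 RPM in libraries 1 to 3, above day 0 and below every later day.

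miR-146a-5p, its near twin in sequence, was scarce in the cell line. It stood at 1.98 RPM (8 counts) at day 0 and at 10.9, 13.7, 28.9 and 31.0 RPM on days 6, 10, 17 and 24. In calvaria it stood at 132, 174 and 210 RPM, so each calvaria library was above each MC3T3 library. Days 6 and 10 were within each other's 95% counting intervals (7.59 to 15.2 and 9.89 to 18.5 RPM). The same held for days 17 and 24 (23.9 to 34.8 and 24.8 to 38.3 RPM).

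miR-155-5p ran the other way in culture. It stood at 34.7 RPM (140 counts) at day 0. The next 4 libraries, in order of day, held 2.85, 3.22, 2.28 and 1.46 RPM, which rest on 9, 10, 9 and 4 counts. Day 0 was high, and the counting intervals of days 6 to 24 overlapped (1.3 to 5.41 RPM at day 6, 0.397 to 3.73 at day 24). In calvaria it stood at 7.61, 5.44 and 11.2 RPM (9, 11 and 15 counts), between day 0 and the later days. The calvaria SD of 2.89 RPM was close to the 2.41 RPM that counting alone gives, so an order among these 3 libraries was not detectable at this depth.

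**Figure D1:**
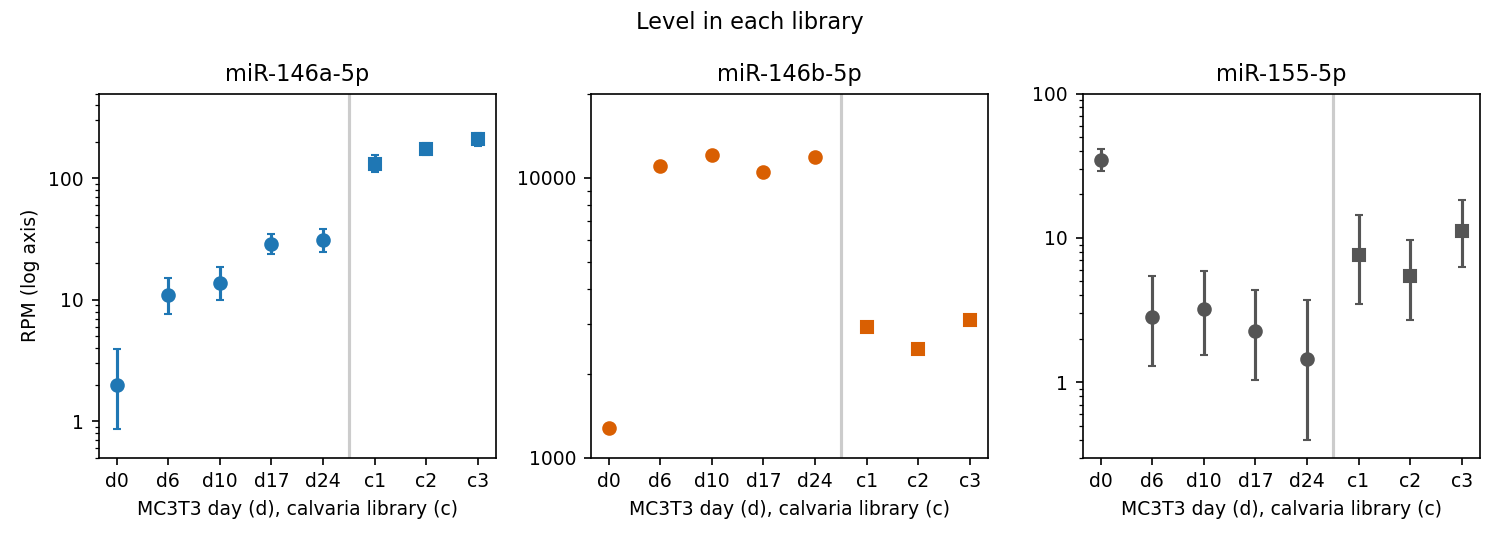
Level of each miRNA in RPM (log axis, a separate scale per panel) in the 5 MC3T3 libraries (circles, d0 to d24) and the 3 calvaria libraries (squares, c1 to c3), with exact 95% Poisson intervals of the count. miR-146b-5p goes from 1276 RPM at day 0 to 10982 at day 6 while miR-155-5p goes from 34.7 to 2.85, and miR-146a-5p is higher in each calvaria library than on any culture day.

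The members differed in when they moved. From day 0 to day 6 the RPM ratio was 8.6 (95% interval 8.36 to 8.86) for miR-146b-5p, 5.43 (2.47 to 13.6) for miR-146a-5p and 0.0821 (0.0368 to 0.16) for miR-155-5p. After TMM scaling these ratios were 5.36, 3.39 and 0.0512. The intervals cover counting error of single libraries only and compare those libraries, not the days.

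After day 6 the largest ratio was that of miR-146a-5p. From day 6 to day 24 it was 2.88 (1.91 to 4.42), or 3.38 after TMM scaling, with the largest adjacent step between days 10 and 17 (2.14, interval 1.49 to 3.12). Over the same span miR-146b-5p had a ratio of 1.08 (1.06 to 1.1) and miR-155-5p 0.511 (0.115 to 1.83). Scaled by TMM, they were 1.27 and 0.602. For miR-155-5p the interval spans 1, so a later difference was not detectable with these counts.

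From day 0 to day 24 the RPM ratio was 15.6 (7.58 to 37.4) for miR-146a-5p, 9.3 (9.03 to 9.58) for miR-146b-5p and 0.042 (0.0113 to 0.11) for miR-155-5p. With TMM scaling they were 11.5, 6.82 and 0.0308. A straight line over the 5 days gave log2 changes over 24 days of 3.27 ± 0.56 (SE) for miR-146a-5p, 1.87 ± 0.85 for miR-146b-5p and -5.73 ± 1.16 for miR-155-5p. Without day 0 the change was 2.50 for miR-146a-5p and 0.36 for miR-146b-5p, and miR-155-5p had too few counts to be fitted. Without day 24, which leaves a steeper line through the early step, the changes were 4.39, 3.25 and -6.83. A line describes miR-146b-5p and miR-155-5p poorly, since nearly all of their difference lies between days 0 and 6. The trend passed its threshold upward for 1.28% and downward for 1.71% of 469 entries. An earlier day trend for miR-146a-5p and miR-155-5p was known when the members were chosen, so nothing is read from the members' place in it.

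The cultured line was then compared with bone, as 3 calvaria against 5 MC3T3 libraries. The miR-146 arms went in opposite directions. miR-146a-5p was at 172 ± 38.9 RPM (SD, n = 3) in calvaria against 17.3 ± 12.4 RPM (SD over days, n = 5) in MC3T3. Its log2 difference was 3.24 ± 0.59 (SE), and edgeR's quasi-likelihood test gave an adjusted p of 0.000887. The groups did not overlap, as for 35.0% of all 551 entries tested, whose calvaria libraries all lay above all MC3T3 libraries. The call held in each alternative setting tried, with log2 differences from 2.20 to 3.63. Against days 17 and 24 alone, where culture came closest to bone, the difference was 2.20 (adjusted p = 0.000307, edgeR).

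miR-146b-5p was at 2826 ± 348 RPM (SD, n = 3) in calvaria against 9335 ± 4549 RPM (n = 5) in MC3T3. Its log2 difference was -1.78 ± 0.52 (edgeR, adjusted p = 0.013). The groups overlapped through day 0, which lay below all 3 calvaria libraries. Without day 0 the difference was -2.02 ± 0.19 (adjusted p = 4.71e-06). The call was lost without calvaria 1, 2 or 3 (adjusted p = 0.0809, 0.0944 and 0.0784), and with limma (0.106 with a pseudocount of 1). When the count filter was relaxed to 2 libraries, a setting chosen after seeing the data, only the fit without calvaria 2 missed the threshold (0.0711), against 0.0455 without calvaria 1 and 0.0303 without calvaria 3.

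miR-155-5p was at 8.07 ± 2.89 RPM (SD, n = 3) in calvaria against 8.91 ± 14.4 RPM (n = 5) in MC3T3, where day 0 set the mean. The difference of -0.64 ± 1.20 did not pass (adjusted p = 0.659, edgeR quasi-likelihood test), and its SE is too wide to show that the levels are alike. Without day 0 the sign turned: calvaria was higher by 1.65 ± 0.33 on the log2 scale (adjusted p = 0.0013), with 8.07 RPM against 2.45 ± 0.766 over days 6 to 24 (n = 4). miR-155-5p thus stood 4.3-fold higher at day 0 than the calvaria mean and the calvaria mean 3.29-fold higher than the mean of days 6 to 24, in RPM. After TMM scaling these ratios were 7.06 and 3.14.

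Of the 3 members, 2 passed in this comparison, miR-146a-5p upward and miR-146b-5p downward in calvaria. Among all 551 entries 32.7% were called higher and 33.8% lower, 66.4% together, so a share like theirs is the background between these materials. Against days 6 to 24 all 3 members passed, beside 72.7% of 535 entries.

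**Figure D2:**
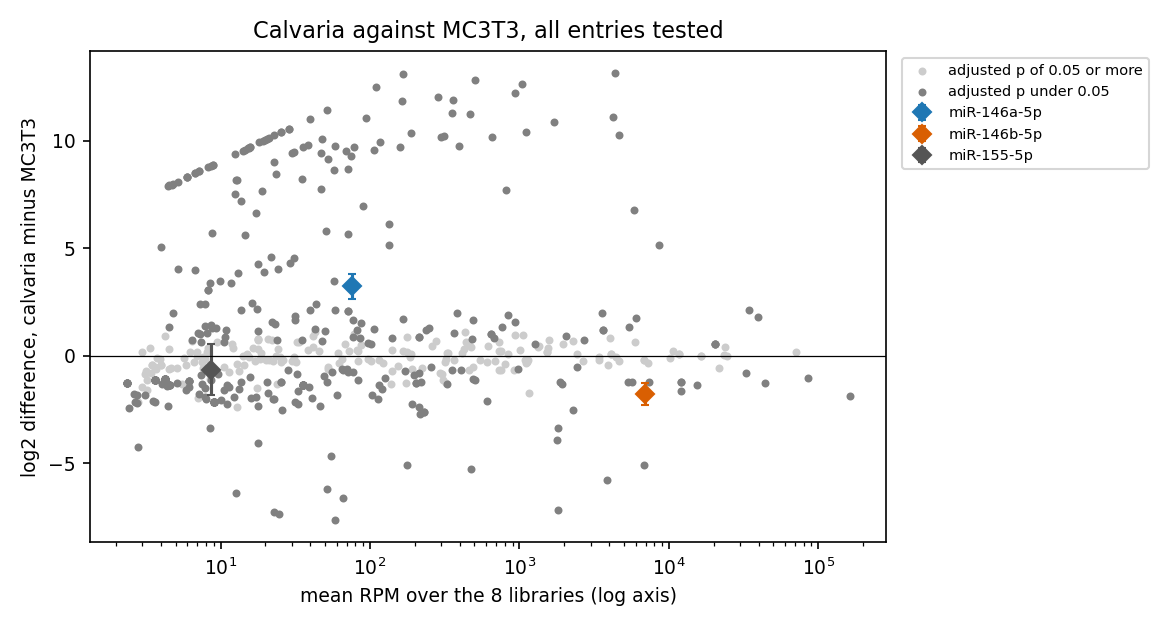
Log2 difference between calvaria and MC3T3 (positive, higher in calvaria) against the mean RPM over the 8 libraries (log axis) for the 551 entries tested. Light points did not pass and dark points passed the adjusted p threshold of 0.05, and diamonds with bars (SE) mark miR-146a-5p at 3.24, miR-146b-5p at -1.78 and miR-155-5p at -0.64.

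The balance within the miR-146 pair differed by far more between materials than between days. miR-146a-5p made up 0.155% of the pair's counts at day 0 (exact 95% interval 0.067 to 0.306). On days 6, 10, 17 and 24 it made up 0.098%, 0.112%, 0.275% and 0.261%. In calvaria it made up 4.31% (3.67 to 5.02), 6.68% (6.02 to 7.38) and 6.32% (5.62 to 7.07). The lowest calvaria share was above the highest culture share, and days 17 and 24 lay above days 6 and 10 with intervals apart (0.227 to 0.33 and 0.208 to 0.322, against 0.0679 to 0.137 and 0.0809 to 0.152). Because the seed is shared, the sum of both arms gives the level of that seed: 1278 RPM at day 0, 10537 to 12057 on later days, and 3061, 2613 and 3322 in calvaria. In every library miR-146b-5p supplied most of it.

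**Figure D3:**
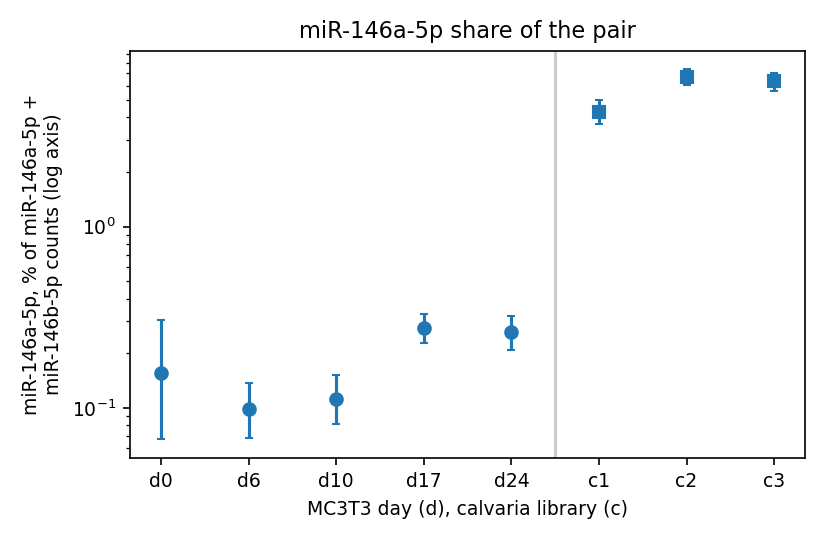
Share of miR-146a-5p in the summed counts of miR-146a-5p and miR-146b-5p (percent, log axis) in the 5 MC3T3 libraries (circles) and 3 calvaria libraries (squares), with exact binomial 95% intervals. The MC3T3 libraries lie between 0.098% and 0.275% and the calvaria libraries between 4.31% and 6.68%.

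The deposited counts show that reads were divided within the pair. Both arms had a fractional count in the same 3 libraries, day 6 (34.5 and 34653.5), day 10 (42.5 and 37390.5) and calvaria 1 (156.5 and 3464.5), and the sum of both was whole in each. miR-155-5p had whole counts in all 8 libraries (values within 0.005 of the stated fraction or whole number). How much of the miR-146a-5p level in MC3T3 comes from reads that fit both arms was not tested. In calvaria miR-146a-5p was higher while miR-146b-5p was lower.

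The passenger arms, the strands usually discarded, were measured with the guides.
miR-146a-3p: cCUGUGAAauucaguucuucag
miR-146b-3p: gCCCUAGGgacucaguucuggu
miR-155-3p: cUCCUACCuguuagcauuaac
Capitals again mark bases 2 to 8. miR-146b-3p followed its guide at a far lower level, with 1.24 RPM (5 counts) at day 0 and 9.51, 7.09, 5.58 and 9.12 RPM on days 6, 10, 17 and 24. Day 0 was again the lowest of the culture libraries. In calvaria it had 1, 5 and 0 counts. It made up 0.0688% of the hairpin's counts over the MC3T3 libraries (exact 95% interval 0.0562 to 0.0833) and 0.0477% (0.0175 to 0.104) over calvaria, intervals that overlap. The day 0 value rests on 5 counts and is in RPM, which the miR-21a-5p share lowers at day 0. With TMM factors, the line over days gave miR-146b-3p a log2 change of 1.17 ± 0.79 (SE) over 24 days. Without day 0 this change was 0.10 ± 0.67. miR-146a-3p had 1 count, in calvaria 2, and 0 of 284 counts from its hairpin in MC3T3, which allows a share of up to 1.06%. miR-155-3p had 1 count at day 0, 1 at day 6 and 0 elsewhere.

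Bone holds other cells, and markers of these differed between calvaria and MC3T3, not all in the same direction. All 4 leukocyte markers, which include miR-223-3p of myeloid cells and miR-150-5p of lymphocytes, lay higher in each calvaria library than in any MC3T3 library and summed to 151 to 177 RPM there. In MC3T3, 3 of the 4 had under 3 counts in every library, so they were measured almost only in calvaria and no test of them is given. miR-223-3p was listed at 0 in 4 of 5 MC3T3 libraries. The endothelial pair miR-126-3p and miR-126-5p summed to 9028 to 20323 RPM in calvaria and 6.2 to 19.0 RPM in MC3T3. The 4 erythroid markers summed to 161 to 287 RPM in calvaria and 37.7 to 107 RPM in MC3T3. They did not move as a group: miR-451a stood at 124 RPM in calvaria and 0.436 in MC3T3, while miR-486-5p, nearly all of the MC3T3 sum, was lower in calvaria (53.1 against 82.9 RPM, log2 -0.80, edgeR adjusted p = 0.0236). All 4 cartilage markers (miR-140 and miR-455 arms) were higher in calvaria (log2 1.26 to 1.76, edgeR adjusted p up to 0.0111) and summed to 61235 to 111611 RPM against 18218 to 28775 in MC3T3. Of 4 striated muscle markers, miR-1a-3p (log2 1.99) and miR-133a-3p (2.99) were higher in calvaria, and miR-206-3p (-1.33) and miR-499-5p (-2.02) did not pass. In bulk RNA, fewer cells of a type and less RNA per cell cannot be told apart. The part of these cells in the calvaria levels of miR-146a-5p and miR-155-5p was not tested. Within MC3T3, leukocyte markers summed to 1.24 RPM at day 0, where miR-155-5p was at 34.7 RPM, and the source of that level was not tested.

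**Figure D4:**
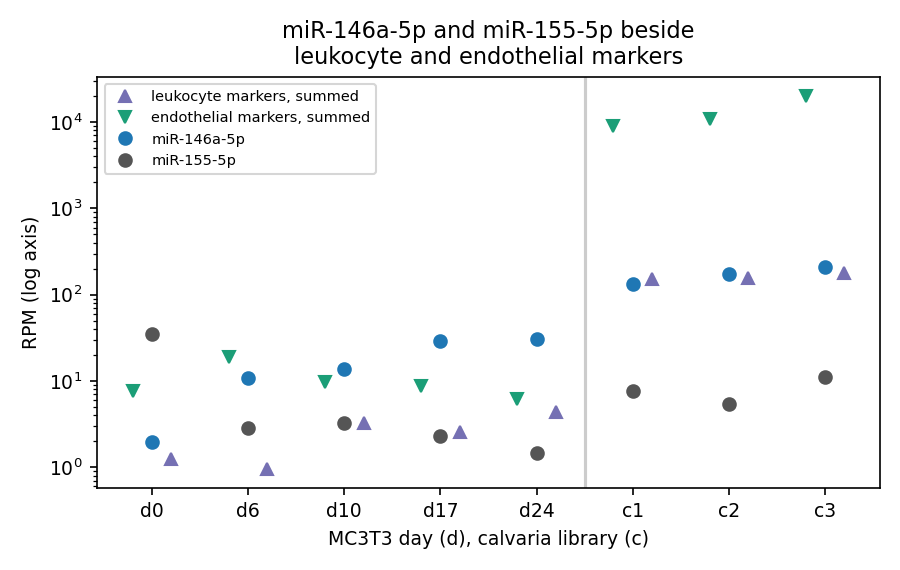
Levels in RPM (log axis) of miR-146a-5p and miR-155-5p (circles) beside the summed leukocyte markers and the summed endothelial markers (triangles, drawn slightly to the side) in the 8 libraries. Leukocyte markers sum to 0.95 to 4.37 RPM in MC3T3 and 151 to 177 RPM in calvaria, and endothelial markers to 6.2 to 19.0 and 9028 to 20323 RPM.

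Of 16 other miRNAs reported to act in NF-κB or toll-like receptor signalling, 15 could be tested between calvaria and MC3T3 on counts summed per mature miRNA. In the edgeR quasi-likelihood test 6 were higher in calvaria, 3 were lower and 6 did not pass. Among all 471 mature miRNAs 35.5% were higher and 28.7% lower. The list's median log2 difference was 0.68 against 0.06 for all. Of those higher, miR-223-3p, also a leukocyte marker, passed the count filter only through calvaria, and miR-203-3p, an epithelial miRNA, through calvaria and day 24. The filter thus let miR-223-3p in through the group where it is higher. It is included in the 15 tested, the 6 higher and the median of 0.68, but its call is not read as a result. They stood at 33.9 and 54.9 RPM in calvaria against 0.072 and 2.11 in MC3T3. The other higher miRNAs were miR-212-3p (log2 1.28) and miR-132-3p (1.05), which come from a shared transcript, miR-181a-5p (1.12) and miR-301a-3p (0.81). miR-221-3p (-2.15), miR-21a-5p (-1.89) and miR-125b-5p (-1.28) were lower. The SD of miR-223-3p in calvaria was 5.37 RPM (n = 3).

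None of the 14 list members that could be tested rose or fell with day in MC3T3 by edgeR (adjusted p from 0.0895 to 0.993), and 4 had an unadjusted p under 0.05. limma called 0 of all 469 entries with day. Their median log2 change over 24 days was 0.03, against -0.12 for all 391 mature miRNAs, of which 1.02% rose and 1.28% fell. The nearest to the threshold were miR-147-3p, induced by toll-like receptor ligands in macrophages, with a log2 change of -3.49 ± 0.92, and miR-21a-5p with -2.14 ± 0.53. Both were highest at day 0, like miR-155-5p. miR-147-3p stood at 15.4 RPM there, 4.75 at day 6 and 2.03 to 2.55 on later days.

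Without day 0, a setting chosen after seeing the data, 13 list members could be tested, and miR-147-3p had too few counts. Of these, 2 rose and 0 fell (edgeR), beside 7.11% rising and 7.89% falling among 380 mature miRNAs, and 5 had an unadjusted p under 0.05. The 2 were miR-181a-5p (log2 change per 24 days 2.68 ± 0.35, adjusted p = 9.65e-09) and miR-181b-5p (2.64 ± 0.37, 4.17e-08), which come from the same clusters. Each day has 1 library, so p-values of a day line reflect scatter about the line, with variance shared across miRNAs. They hold no spread among replicates of a day. Over all 5 days miR-181a-5p and miR-181b-5p had 1.58 ± 0.46 (adjusted p = 0.108) and 1.22 ± 0.55 (0.242). miR-21a-5p had -0.78 ± 0.33 (adjusted p = 0.103) without day 0.

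The miRNAs most like each member were ranked by Pearson's r of log2 CPM (counts scaled by TMM), as a description over libraries that share the day 0 shift and the split between materials. Over the 5 MC3T3 libraries, miR-146b-5p was most like miR-184-3p (r = 0.998), miR-152-3p (0.995) and miR-194-5p (0.992) among 278 candidates. miR-146a-5p was most like miR-99a-5p (0.987), miR-497-5p (0.987) and miR-125b-2-3p (0.984). miR-155-5p was most like the muscle miRNA miR-206-3p (0.991), miR-30c-2-3p (0.990) and miR-30a-5p (0.989). These rankings rest in part on day 0 and were not repeated without it.

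Over all 8 libraries the nearest were others: miR-148a-5p (0.985), miR-1a-3p (0.983) and miR-1839-5p (0.975) for miR-146a-5p, miR-195a-3p (0.975), miR-99a-3p (0.951) and miR-466d-3p (0.933) for miR-146b-5p, and miR-214-5p (0.975), miR-98-5p (0.913) and miR-1249-3p (0.866) for miR-155-5p. Among the members, r between miR-146a-5p and miR-146b-5p was 0.87 over the 5 MC3T3 libraries, 0.39 over the 4 without day 0 and -0.31 over all 8. Between miR-146b-5p and miR-155-5p it was -0.98, -0.17 and -0.81.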

How the data were processed

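In the deposited raw table the authors give estimated counts for each pair of mature arm and precursor. Their deposited normalized table gives RPM, which equals the raw value over the library total within 0.013 RPM. Per the submitters' processing notes, cutadapt 0.9.5, Bowtie 0.12.7 and mm10 were used, with no role or order given. The quantifier was not given in the sources used here. Days follow the sample titles. MC3T3 column names carry a day 3 lower or, for day 0, -3, and were matched by the gaps between days. Names of the later days also end in veh, which the day 0 name lacks, and the sample titles do not explain this ending. Whatever it marks cannot be told apart from the difference between day 0 and later days.

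Expected counts were rounded. The calvaria comparison used entries with 10 counts in at least 3 of 8 libraries, and the day line those with 10 in at least 2 of 5. miR-155-5p passed the former through day 0, day 10, calvaria 2 and calvaria 3. Fits used edgeR 4.0.16 (R 4.3.3) with the quasi-likelihood test, TMM factors and Benjamini-Hochberg adjustment over all entries tested, at a threshold of 0.05. The script was tested on simulated data. Alternatives were DESeq2 1.42.0, limma 3.58.1 on log2(RPM + 1) or log2(RPM + 10), other scalings and filters, and leaving out each library. Likeness used log2 CPM (prior count 2) and a mean of at least 10 RPM, naming 3 miRNAs per member. Members with their arms, miRNAs of the same seed and list members that passed are named; miR-147-3p and miR-21a-5p with day, and the other markers given beside the calvaria values, were chosen after their values were seen. Members and lists were chosen with earlier results of these data known. Reads have no molecular identifiers, so intervals and limits (3 counts where 0 were seen, 95% elsewhere) cover counting error only.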

Additional observations from a re-analysis of the deposited data

How the results depend on the processing

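miR-146a-5p was higher in calvaria and past the threshold in all 23 alternatives (adjusted p up to 0.00532 in the model fits, and 0.0357, the smallest value possible, in the exact permutation test). For miR-146b-5p 16 of 23 kept the call. It was lost with limma (-1.38 with either pseudocount, adjusted p = 0.106 and 0.125), in the two-sided exact permutation test (-1.38, p = 0.143), without each calvaria library in turn (-1.59 to -1.48), and without calvaria 2 with the filter relaxed to 2 libraries (-1.53). It was kept without each MC3T3 library, down to -2.02 without day 0. The cause was not tested. For miR-155-5p the direction reversed with limma (0.69 and 0.16 with pseudocounts of 1 and 10) and in the exact permutation test (0.69, p = 0.536). It also reversed without day 0 (1.65) and against days 17 and 24 with the relaxed filter (1.96). In the latter fit miR-155-5p passed the filter only through calvaria 2 and calvaria 3, the group where it is higher, so no p is given. Over libraries left out the miR-155-5p difference ran from -0.92 to 1.65, or from -0.97 to -0.24 with the relaxed filter. It had no value with 100 counts required or against days 17 and 24 with the planned filter.

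The fitted 24-day change ran over libraries left out from 2.50 to 4.39 for miR-146a-5p, 0.36 to 3.25 for miR-146b-5p and -6.83 to -5.79 for miR-155-5p, which could not be fitted without day 0 or day 10. On a log2 day scale miR-146b-5p had 2.85. With limma, where the pseudocount shrinks low values, miR-155-5p had -3.16 and -1.57 and, with a pseudocount of 10, miR-146a-5p had 1.79. Entries called in calvaria ranged from 85 to 249 higher and 87 to 251 lower, against 180 and 186 of 551. The number tested changed with the filter. With 100 counts required, the 85 and 87 were 30.4% and 31.1% of 280 entries. The 249 higher were 24.8% of 1005 entries without a filter, and the 251 lower were 45.6% of 551. DESeq2 size factors gave 216 higher and 128 lower, upper quartile factors 143 and 251, and library totals 179 and 137. The median log2 difference of all entries was -0.13 with TMM and 0.18, -0.61 and 0.01 with these. Both miR-146 directions held under each. Entries called with day ranged from 0 to 47 rising and 0 to 56 falling, against 6 and 8 of 469. The 47 and 56 came from the log2 day scale and were 10% and 11.9% of 469 entries. Both lower ends were reached with limma, also on 469 entries. No paired analysis was possible because each culture day has 1 library and the calvaria numbers pair with none. Depth limits miR-155-5p most, with 4 to 15 counts outside day 0.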
